A study of Mus musculus with 2 samples.

Results

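The genes described here encode the proteasome, the barrel-shaped protease that degrades proteins tagged with ubiquitin, together with the proteins that activate, inhibit or assemble it. They were found by name among the probe sets of the array, a probe set being the oligonucleotides that jointly give 1 value for a transcript. Every probe set whose only annotated symbol was Psma, Psmb, Psmc, Psmd, Psme, Psmf1 or Psmg with a number was taken. This gave 85 probe sets for 48 genes, of 20380 probe sets with 1 symbol for 12393 genes. The pattern also picked up Psmc3ip, a protein of meiotic recombination, and Psme3ip1, a protein that binds the activator subunit Psme3, which are not parts of the proteasome, so 46 of the 48 genes are. Psmb11, the thymus beta subunit, had no probe set of its own, and Psme2 and its copy Psme2b shared 1.

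The series compared bone from mouse grafts: 1 array held total RNA of an allograft sample and 1 array that of an autograft sample, both labelled as coming from the C57BL/6 femur. An autograft is moved within an animal and an allograft between animals of a species. The labels do not say whether C57BL/6 was the donor or the recipient, how the graft was made, how long it stayed in place or how many animals gave the RNA. With 1 array per graft type the differences below lack a replicate check and a test between the grafts, and precision is limited by the number of arrays.

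The 20S core of the proteasome is a stack of rings, with outer rings of alpha subunits that form the gate and inner rings of beta subunits, of which Psmb5, Psmb6 and Psmb7 carry the proteolytic sites. The 19S regulatory particle caps the core: its base of ATPases unfolds the substrate and its lid removes ubiquitin. In blood-forming and immune cells, and after interferon, the catalytic beta subunits are exchanged for Psmb8, Psmb9 and Psmb10, which makes the immunoproteasome, a form known for cutting peptides for MHC class I.

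The authors deposited linear intensities. Values under 175.2, the median of all non-control values, were set to that floor, and the log2 ratio given throughout is that of the allograft over the autograft, from each gene's probe set with the highest mean intensity. On both arrays 45 of the 48 genes exceeded the floor, Psmf1 and Psmc3ip did so for the allograft alone, and Psma8, the alpha subunit of the testis, for neither (24.2 against 27.3). The proteasome genes differed little between the arrays. None of the 45 was 1.5-fold apart, whereas of all 7101 genes above the floor on both arrays 10.4% were, and 1.56% were at least 2-fold apart. The log2 ratios of the 45 had an SD across genes of 0.23 and ran from -0.57 to 0.48, against an SD of 0.38 across all genes. Bright genes varied less in general: among the 2182 genes that read at least 1000 on both arrays, 6.87% were at least 1.5-fold apart and 1.05% at least 2-fold, and of the 29 members in that range none was. Genes of one array pair are not replicates, so these shares describe the pair.

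**Figure D1:**
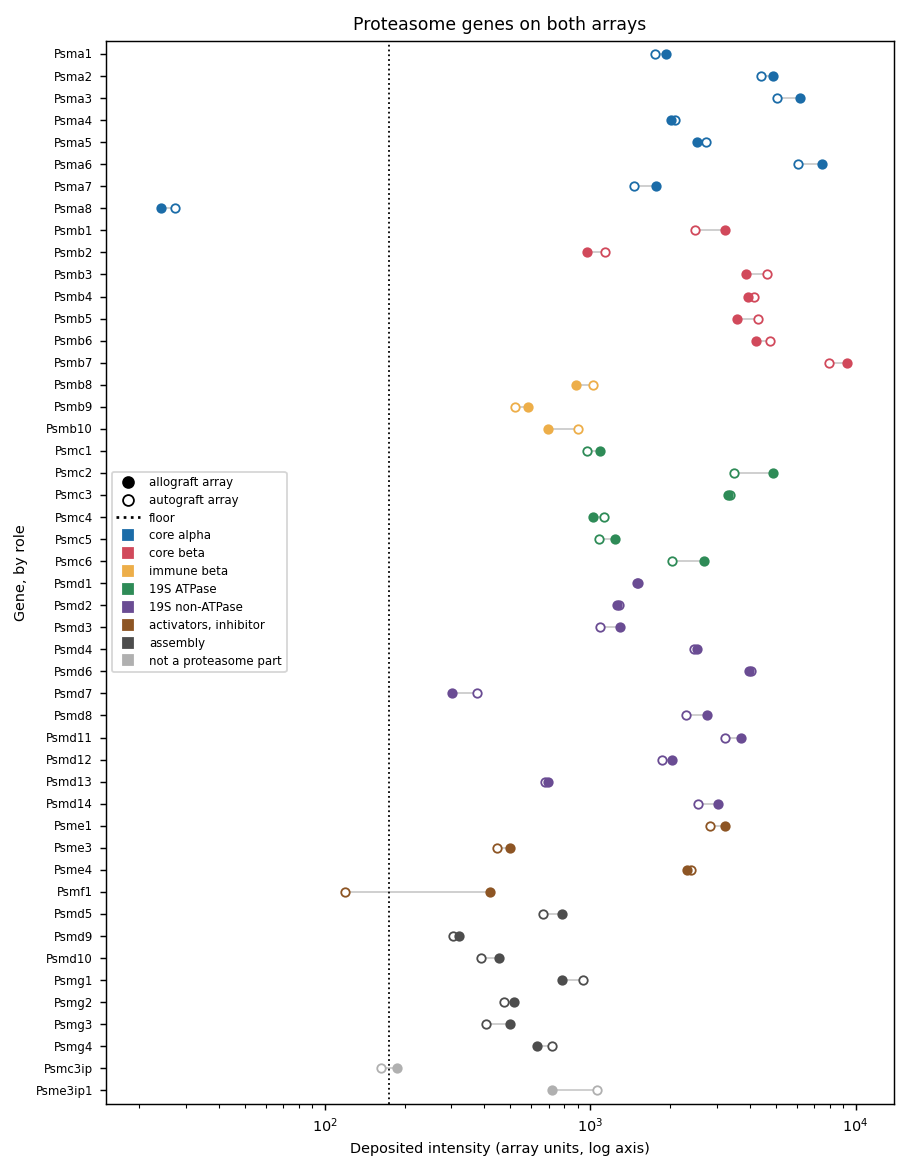
Deposited intensity (log axis, array units) of the 48 genes for the allograft (filled points) and the autograft (open points), coloured by role, with the floor of 175.2 as a dotted line. The points of a gene lie close together except for Psmf1, at 419 for the allograft and 119 for the autograft, and both points of Psma8 lie far below the floor.

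The centre of the members lay slightly above that of all genes. The median log2 ratio was 0.11 over the 47 members that exceeded the floor on 1 array or both, and -0.08 over the 7833 genes of all kinds that met the same condition. Of the 45 members above the floor on both arrays, 27 stood above 0 (60.0%), against 41.4% of all genes. The ratio also depended on brightness: the median of all genes was 0.26 in the brightest of 20 equal bins of mean intensity, which holds 5 members, 0.00 in the next one, which holds 10, and -0.09 in the middle of the range. Set against the median of its own bin, 28 of 47 members were higher and the median excess was 0.06.

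**Figure D2:**
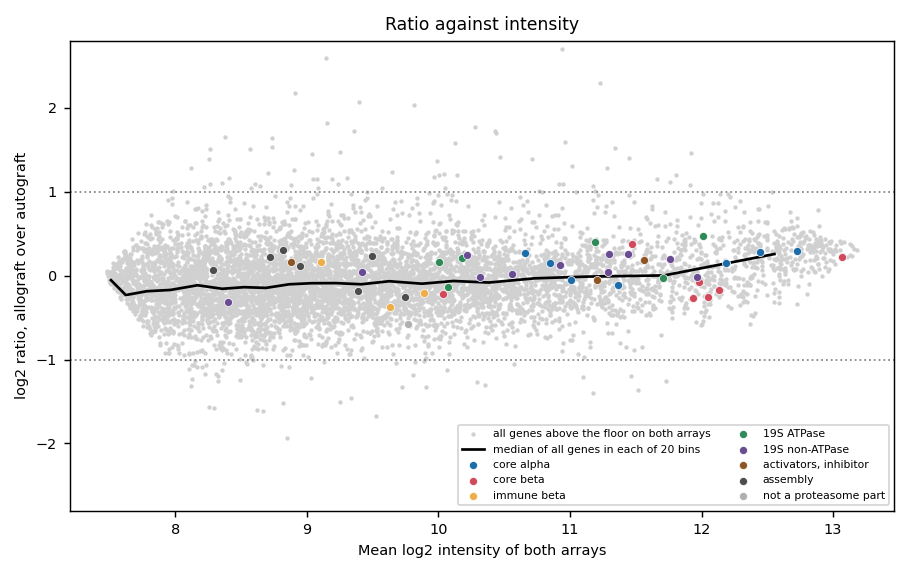
Log2 ratio of allograft over autograft against the mean log2 intensity of both arrays, for all genes above the floor on both arrays (grey), the median of all genes in 20 bins (black line) and the proteasome genes (coloured by role); dotted lines mark 2-fold. The members stay between -0.57 and 0.48 and most sit in the brighter part of the range, where the black line climbs to 0.26.

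Of the alpha subunits, which form the outer rings of the core and its gate, 5 of the 7 above the floor stood above 0 and none was 1.5-fold apart. Psma6 read 7494 for the allograft and 6092 for the autograft, a log2 ratio of 0.30. Psma3 read 6149 against 5067 (0.28), and Psma7 read 1776 against 1470 (0.27). These were the alpha genes the highest in the allograft, by at most 1.23-fold. Psma2 (0.16) and Psma1 (0.15) followed, while Psma4 (2016 against 2096) and Psma5 (2537 against 2737) were slightly lower in the allograft, at -0.06 and -0.11. The median of the alpha genes was 0.16. Psma2, Psma3 and Psma6 lie in the brightest bin, and against the bins the alpha median was 0.02.

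The 7 constitutive beta subunits, which line the inner chamber, stood mostly on the other side, with 5 below 0 and a median of -0.17. Psmb5, the subunit that cuts after hydrophobic residues, read 3567 against 4285 (-0.26). Psmb6, which cuts after acidic residues, read 4229 against 4746 (-0.17). Psmb3, a beta subunit without a proteolytic site, read 3870 against 4620 (-0.26). All were lower in the allograft, by at most 1.20-fold. Psmb2 stood at -0.22 and Psmb4 at -0.08. The exceptions were Psmb1, at 3231 against 2485 (0.38), and Psmb7, which cuts after basic residues, at 9252 against 7926 (0.22). Psmb7 is in the brightest bin and stood at -0.03 against the median of that bin and at -0.06 after quantile normalization, so its direction depends on the scaling. The constitutive beta median was below 0 in each alternative tried, from -0.22 to -0.07. The value of -0.07 came without probe sets that can match several transcripts. There the median of all genes was -0.09, so the beta median was not below it, as it was in the other alternatives.

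**Figure D3:**
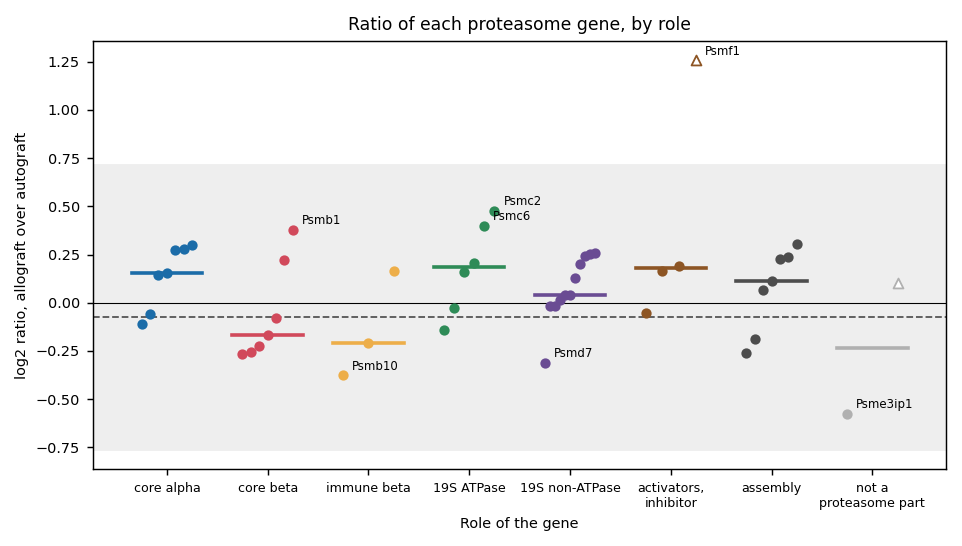
Log2 ratio of allograft over autograft for each gene above the floor on at least 1 array, by role, with the median of each role as a bar; open triangles are values against the floor on the autograft array. The grey band is the central 95% of all genes above the floor on both arrays (-0.76 to 0.71) and the dashed line the median of all genes (-0.08): Psmf1 (1.26) alone lies outside the band, and the alpha (0.16) and beta (-0.17) medians lie on opposite sides of 0, the alpha median falling to 0.00 after quantile normalization.

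The immunoproteasome subunits were present on both arrays and differed little between them. Psmb8, which takes the place of Psmb5, read 883 against 1021 (log2 ratio -0.21). Psmb9, which takes the place of Psmb6, read 586 against 522 (0.17). Psmb10, which takes the place of Psmb7, read 695 against 902 (-0.38), the lowest ratio among the proteasome parts. The exchange of subunits can be followed as the ratio of each immune gene minus that of the gene it replaces. This difference was 0.05 for Psmb8 and Psmb5, 0.33 for Psmb9 and Psmb6, and -0.60 for Psmb10 and Psmb7, so the 3 pairs did not move one way. Their mean was -0.07, and it was 0.19 after quantile normalization and also 0.19 against the intensity bins, so its sign depends on the scaling.

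The promoters of the exchanged pairs for which RefSeq windows were at hand are shown because these genes replace one another in the core. Each runs from 250 bases before to 50 bases after the annotated start, in build GRCm38.p6, written 5′ to 3′ on the strand of the gene, with capitals for a match to any of 3 motifs described next. The windows are chr14:54617946-54618245 (minus strand) for Psmb5, chr17:34197945-34198244 (plus strand) for Psmb8, chr11:70525107-70525406 (plus strand) for Psmb6 and chr17:34187281-34187580 (minus strand) for Psmb9. The window of Psme1, an interferon-inducible activator subunit, is chr14:55578244-55578543 (plus strand).
Psmb5: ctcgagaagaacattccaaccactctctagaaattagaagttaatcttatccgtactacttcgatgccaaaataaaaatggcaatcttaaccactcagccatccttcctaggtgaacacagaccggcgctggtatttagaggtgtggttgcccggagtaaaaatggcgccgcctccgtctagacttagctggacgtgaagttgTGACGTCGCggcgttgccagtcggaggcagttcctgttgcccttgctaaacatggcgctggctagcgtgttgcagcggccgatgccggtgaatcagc
Psmb8: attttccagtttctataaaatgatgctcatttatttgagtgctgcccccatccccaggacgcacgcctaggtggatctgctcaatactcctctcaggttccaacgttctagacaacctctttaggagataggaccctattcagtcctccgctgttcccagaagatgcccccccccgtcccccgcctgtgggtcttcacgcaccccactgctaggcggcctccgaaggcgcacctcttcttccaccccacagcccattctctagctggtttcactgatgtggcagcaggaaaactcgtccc
Psmb6: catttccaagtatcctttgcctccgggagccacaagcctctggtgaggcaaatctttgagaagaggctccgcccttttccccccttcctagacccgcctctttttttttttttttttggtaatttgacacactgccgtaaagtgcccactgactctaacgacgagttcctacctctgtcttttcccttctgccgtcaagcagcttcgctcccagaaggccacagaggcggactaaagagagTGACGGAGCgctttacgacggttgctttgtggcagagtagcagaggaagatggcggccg
Psmb9: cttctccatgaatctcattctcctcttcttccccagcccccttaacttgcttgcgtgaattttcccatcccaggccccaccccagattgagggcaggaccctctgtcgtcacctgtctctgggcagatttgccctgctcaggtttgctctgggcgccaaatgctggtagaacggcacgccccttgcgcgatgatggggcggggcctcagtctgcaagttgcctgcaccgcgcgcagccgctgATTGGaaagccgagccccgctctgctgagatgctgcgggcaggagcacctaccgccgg
Psme1: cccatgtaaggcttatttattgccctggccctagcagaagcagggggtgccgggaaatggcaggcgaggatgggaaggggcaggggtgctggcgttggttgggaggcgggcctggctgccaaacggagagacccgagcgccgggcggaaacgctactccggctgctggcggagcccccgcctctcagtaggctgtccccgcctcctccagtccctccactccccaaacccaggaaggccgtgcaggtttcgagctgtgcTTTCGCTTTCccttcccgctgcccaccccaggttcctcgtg

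The motifs were searched on both strands as plain letters. TGACNNNGC, the core of the antioxidant response element bound by Nrf1 and Nrf2, starts 47 bases before the start site in Psmb5 and 9 bases before it in Psmb6. It was in 6 of the 43 windows of members (14.0%) and in 12.4% of all 32851 windows. The interferon-stimulated element, searched as a pair of GAAA blocks with any 2 bases between them, was in 5 of 43 (11.6%, against 3.44%): Psmb3, Psmd4, Psmd9, Psmg4 and Psme1, the last just after the start site. CCAAT, the box of NF-Y, was in 15 of 43 (34.9%, against 37.4%), among them Psmb9. Each window shown holds 1 match, except that of Psmb8, where these letters were not found. The windows of members were richer in CpG, with a median ratio of observed to expected CpG of 0.76 against 0.38 over all windows and a median GC content of 59.0% against 52.7%. The 43 windows belong to 40 of the 48 genes; those of Psma8, Psmb1, Psmb2, Psmb7, Psmc3, Psmd3, Psmd7 and Psmg2 were not in the table. A match is a description of letters and not a binding site.

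In the 19S regulatory particle, 12 of 17 genes stood above 0, with a median of 0.13 that was 0.15 against the intensity bins. The 6 ATPases of the base, the motor that unfolds and threads the substrate, had a median of 0.18 and held the highest ratio among the proteasome genes measured on both arrays. This was Psmc2, at 4867 against 3497 (0.48, 1.39-fold). Psmc6 was next, at 2680 against 2031 (0.40). Psmc5 (1244 against 1077, 0.21) and Psmc1 (1086 against 972, 0.16) were also higher in the allograft, while Psmc3 (-0.03) and Psmc4 (1026 against 1131, -0.14) were not. Without probe sets that can match several transcripts, 7 of the 12 genes left in the 19S particle stood above 0, and the ATPase median was 0.07. The probe set of Psmc2 is of that kind, and its other one read 2970 against 2835, a log2 ratio of 0.07. That of Psmc6 is also of that kind. Its only probe set of another kind read 19.3 against 61.5, below the floor, so Psmc6 dropped out there.

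The 11 non-ATPase subunits had a median of 0.04 and 8 stood above 0. Without probe sets that can match several transcripts the median was 0.02, with 4 of 7 above 0. In the base, the large scaffold subunits Psmd1 (1519 against 1503, 0.02) and Psmd2 (1267 against 1283, -0.02) read almost alike on both arrays, as did Psmd4, a ubiquitin receptor (2537 against 2465, 0.04). Of the 8 lid subunits 6 stood above 0, with a median of 0.16. Psmd8, a structural lid subunit, read 2751 against 2299 (0.26). Psmd14, the deubiquitinase of the lid, read 3034 against 2542 (0.26), and Psmd3, another scaffold, 1292 against 1093 (0.24). The catalytic lid subunit thus lay beside its neighbours with a difference of 1.20-fold at most among those above 0. Psmd11 (0.20), Psmd12 (0.13), Psmd13 (0.04) and Psmd6 (-0.02) came between these and Psmd7, the inactive partner of Psmd14, at 303 against 376 (-0.31, 1.24-fold).

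Activators cap the core in place of the 19S particle and open its gate without ATP. Psme1, a subunit of the interferon-inducible PA28 ring, read 3235 against 2831 (0.19). The probe set shared by its partner Psme2 and the copy Psme2b, left out of the gene counts for having 2 symbols, read 1628 against 1777 (-0.13). Psme3, the nuclear activator PA28 gamma, read 498 against 445 (0.16), and Psme4, the large activator PA200, read 2313 against 2400 (-0.05). No activator came near 1.5-fold.

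Psmf1, which encodes the proteasome inhibitor PI31, was the only member at least 2-fold apart on either side. Its brightest probe set read 419 for the allograft and 119, below the floor, for the autograft, so it was at least 2.39-fold higher in the allograft. Of all 7833 genes above the floor on at least 1 array, 0.868% were higher in the allograft by 2-fold or more and 0.753% were lower by as much, so 1 of 47 members higher and 0 lower is near the share among all genes. At 1.5-fold either way the count of members was again 1 of 47, against 10.6% of all genes. Among the 226 genes above the floor in the allograft alone, 2.21% were at least 2-fold over it. The other probe sets of Psmf1 did not show this difference. They read 196 against 177, 151 against 148 and 9.80 against 12.6, and the first of these, the only one above the floor on both arrays, stood at a log2 ratio of 0.15. With the mean of the probe sets the ratio of Psmf1 was 0.35.

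The assembly chaperones bind subunits on the way to the finished particle and leave it afterwards. The 3 chaperones of the 19S base were slightly higher in the allograft: Psmd5 read 784 against 665 (0.24), Psmd10, known as gankyrin, read 455 against 389 (0.22), and Psmd9 read 320 against 306 (0.07). Those of the alpha ring were split. Psmg3 read 501 against 406 (0.30) and its partner Psmg4 read 629 against 717 (-0.19), while Psmg2 read 515 against 476 (0.11) and its partner Psmg1 read 785 against 939 (-0.26). Members of each chaperone pair thus stood on opposite sides of 0. The median of all 7 was 0.11 and turned to -0.19 with the floor at the 75th percentile, which leaves 3 of them. Outside the proteasome, Psme3ip1 had the lowest ratio of all members, at 716 against 1066 (-0.57, 1.49-fold), just inside 1.5-fold, and Psmc3ip read 188 against 163, around the floor.

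Several genes are read by more than 1 probe set, which gives a check within the array pair. For 16 members at least a pair of probe sets lay above the floor on both arrays, and the ratios of the brightest and the next differed by 0.13 in the median and with an SD of 0.25. For the 1925 genes of all kinds the same values were 0.26 and 0.44. The sign was the same in 11 of the 16 members (68.8%) and in 60.8% of all genes. Psma5, Psma7, Psmd4, Psmg2 and Psme3 agreed to within 0.05. Psmc4 read -0.14 by the brighter probe set and 0.41 by the next, and Psmd13 read 0.04 and -0.40. For Psmb4 the values were -0.08 and 0.20, and for Psmb1 0.38 and 0.10. The second probe set of Psmb1 read 194 against 181, near the floor, so its ratio says little about the first. Many of the member ratios are as small as these differences between probe sets of one gene, so the order of members within a role is not resolved by this pair of arrays.

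**Figure D4:**
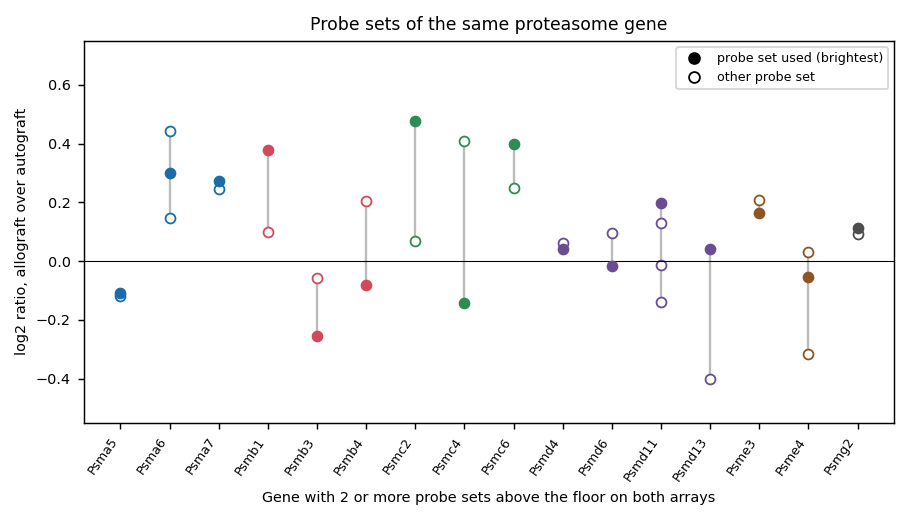
Log2 ratio of allograft over autograft for every probe set that exceeded the floor on both arrays, for the 16 proteasome genes with at least 2 such probe sets; filled points are the probe set used for the gene and grey lines span its probe sets. Psmc4 (-0.14 and 0.41) and Psmd13 (0.04 and -0.40) have the widest gaps, and Psma5, Psma7, Psmd4, Psmg2 and Psme3 the narrowest.

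Genes that work with the proteasome were taken from lists of the pathway, with each list's median set beside the -0.07 of all genes above the floor on both arrays. None of their members was 2-fold apart, and with 1.56% of all genes that far apart, a count of 0 in lists of this size is near the share among all genes. Among proteasome partners and shuttle factors, 7 of 13 stood above 0, with a median of 0.01. Ecpas, a scaffold that binds the 26S particle, was highest (409 against 256, 0.68), followed by Txnl1, a thioredoxin bound to it (0.56). Lowest were Ube3c, a ligase on the particle (233 against 396, -0.76), and Usp14, its reversible deubiquitinase (-0.57). This list spread more widely than the proteasome subunits, with an SD of 0.40 across genes against 0.21 for the 44 proteasome parts above the floor on both arrays.

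Of the ubiquitin conjugating enzymes, 13 of 20 stood above 0, with a median of 0.09. Ube2c, the conjugating enzyme of the anaphase-promoting complex, read 2418 against 1354 (0.84). Ube2d2a stood at 0.69, and Ube2n (-0.51) and Ube2j1 (-0.29) were lowest. Cell cycle genes were higher in the allograft beside Ube2c, with 11 of 11 genes above the floor on both arrays above 0 and a summed intensity of 24022 against 16280 over 13 genes; their part in the value of Ube2c was not tested. Fbxo32, a ligase of muscle wasting, read 286 against 311 (-0.12).

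Cofactors of p97, the unfoldase that hands ubiquitinated proteins to the proteasome, mostly stood below 0, with 8 of 11 below and a median of -0.17. Syvn1, a ligase of the endoplasmic reticulum, read 729 against 1285 (-0.82), and Nsfl1c (-0.43) was next. The unfoldase itself, Vcp, read 2888 against 3239 (-0.17). Ubxn1 (0.30) and Nploc4 (0.22) were highest.

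The Nrf1 and Nrf2 list holds the factors that control proteasome genes under stress and their targets. Of its 10 genes above the floor on both arrays 7 stood above 0, with a median of 0.13. Nfe2l1, which encodes Nrf1, the factor of the proteasome recovery response, read 1202 against 1111 (0.11), and Ngly1, the enzyme needed to activate it, 855 against 1130 (-0.40), the lowest of the list. Mafg (-0.26) was next. Gclc, of glutathione synthesis, was highest at 0.58, followed by Hmox1, of heme breakdown, at 0.36.

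Class I presentation genes are the partners of the immunoproteasome, and 8 of 15 stood above 0 with a median of 0.04. The class I heavy chain H2-K1 read 7281 against 4184 (0.80) and its light chain B2m read 5355 against 3894 (0.46), both in the brightest bin, whose median was 0.26. The peptide transporter genes Tap1 (569 against 647, -0.19) and Tap2 (271 against 327, -0.27) stood below 0. So did Psmb8 and Psmb10, while Psmb9 stood above it (0.17). Of all 7101 genes above the floor on both arrays, 4156 were below 0. Tap2 and the chaperone Calr (-0.24) were the lowest of the list. Irf1, an activator of these genes, read 976 against 1069 (-0.13). Other genes of the list stood above 0, among them Irf8 (0.40), H2-D1 (0.35) and Gbp2 (0.14), and 7 of the 15 stood below.

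**Figure D5:**
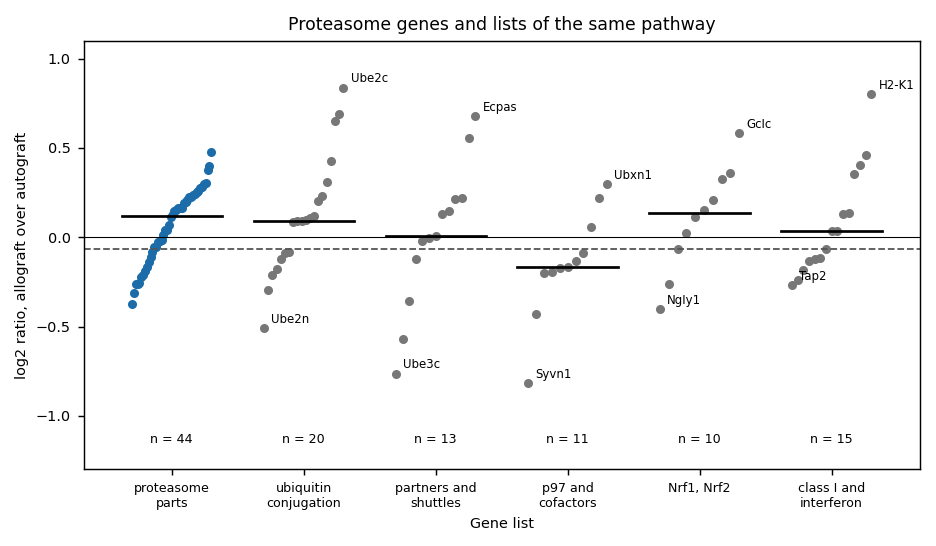
Log2 ratio of allograft over autograft for the proteasome parts and 5 pathway lists, for genes above the floor on both arrays, with the median of each list as a bar and the median of all genes (-0.07) as a dashed line; the highest and lowest gene of each pathway list are named. The 44 proteasome parts lie between -0.38 and 0.48, a narrower span than that from -0.76 to 0.68 of the partners and shuttles.

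The tissue held several cell types whose markers differed between the arrays more than the proteasome genes did. Of the markers of osteoblasts, the bone-forming cells, 6 of 6 on the array were above the floor, with a summed intensity of 27673 in the allograft and 19762 in the autograft; Ibsp, bone sialoprotein, read 8109 against 7811 and Sparc, osteonectin, 6445 against 2336. The list was split, with 4 genes above 0 and 2 below. Among the 4 were the collagen genes Col1a1 (4994 against 771, 2.70) and Col1a2 (5111 against 2362, 1.11). Col1a1 had the highest ratio of all genes above the floor on both arrays. Below 0 were Alpl, the alkaline phosphatase of mineralising cells (2197 against 5241, -1.25), and Sp7, an osteoblast transcription factor (817 against 1242, -0.60). Sums for erythroid precursors (9 genes, 23706 against 12917), neutrophils (10 genes, 52802 against 39975) and skeletal muscle (10 genes, 43670 against 32077) were higher in the allograft. Several of these genes lie in the brightest bin, and against the bins the medians were 0.98, 0.37 and 0.24. The muscle list was split, with 7 genes above 0 and 3 below. The sums for chondrocytes (8 genes, 16469 against 19889), osteocytes (6 genes, 3949 against 5352) and endothelial cells (8 genes, 3114 against 3703) were lower. Of the osteocyte genes 2 were below the floor on both arrays, and of the endothelial genes 1. In the chondrocyte list 5 genes stood below 0 and 2 were below the floor on both arrays. Its brightest gene, Col2a1, was higher in the allograft (6121 against 4511, 0.44). T and natural killer cell markers were below the floor on both arrays for 7 of 9 genes. In such bulk RNA, fewer cells of a type and less RNA per cell cannot be told apart. The ratio of 3′ to 5′ intensity of the beta-actin control, which rises with RNA breakdown, was 1.77 for the allograft and 1.19 for the autograft. For the Gapdh control, whose 3′ probe set read 1577 against 233 and whose 5′ probe set read 8122 against 6671, it was far below 1 on both arrays, at 0.194 and 0.0349. The part of cell content and of RNA quality in the proteasome values was not tested.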

How the data were processed

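Total RNA of 1 allograft and 1 autograft sample was measured on an array whose probe set names have the Affymetrix form. The authors deposited 1 intensity per probe set and array on a linear scale; how they were background corrected and scaled is not given in the sources used here. The 2% trimmed means were 500.2 and 500.1, so values were used as deposited. Samples were grouped by title.

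Of 22690 probe sets, 64 controls were left out, and 691 with several symbols and 1555 that the platform annotation does not list were given no gene. All 48 member genes matched the RefSeq table of GRCm38.p6 by Entrez identifier, and 0 symbols changed. Where a gene had several probe sets, the one of highest mean intensity was used; 17 of the 48 used carry a suffix for oligonucleotides that can match several transcripts. Values were floored at 175.2 and log2 transformed, and the fold threshold was 2. With 1 array per group no p-value was computed.

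The named genes were every member and the 2 highest and 2 lowest genes of each of the pathway lists; a few others were named after their values were seen. Cell type lists are given by their sums, with the 2 brightest genes for osteoblasts. Some other marker genes, such as Alpl, Col2a1 and Acp5, were also named after their values were seen. Members, lists and tests were chosen with earlier results of these data known. Further marker lists gave sums of 15682 against 12556 (osteoclast), 22318 against 20422 (macrophage), 6347 against 6005 (B and plasma cell), 20179 against 13893 (adipocyte) and 1012 against 822 (T and natural killer cell). Of the osteoclast genes, Acp5 and Ctsk were higher in the allograft but 3 of 5 stood below 0, with a median log2 ratio of -0.61. Of the macrophage genes above the floor on both arrays, 4 stood above 0 and 4 below. Csf1r (8219 against 5221) differed by more than the macrophage sum did. Jchain (1193 against 361) likewise differed by more than the B and plasma cell sum, in a list with 5 genes above 0 and 2 below. In the adipocyte list 3 of 6 genes were below the floor on both arrays.

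The alternatives were quantile normalization, other centring, subtraction of the median of 20 intensity bins, other floors, no floor with 16 added, the mean or dimmest probe set, no probe sets with a shared suffix, and thresholds of 1.5-fold and 4-fold. A planned comparison of protein sequences was not made, and 1 planned motif and 1 planned gene list are not reported here. The gene step was tested on simulated data. Computations used pandas 2.3.3, numpy 2.4.6, scipy 1.17.1 and matplotlib 3.10.9 under Python 3.11.15.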

Additional observations from a re-analysis of the deposited data

How the results depend on the processing

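Each value was recomputed under the alternatives, and a median was taken as moved when it shifted by at least 0.1 and a single gene when it shifted by at least 0.44, the SD of the difference between probe sets of one gene. Of the 88 medians recomputed, 80 moved by less than that, and of 441 values of single members 437 did. These limits are as large as most of the values, so the counts do not show that a direction held. Psmb7 went from 0.22 to -0.06 under quantile normalization without counting as moved. The median of all members fell from 0.11 to 0.04 there and did not count either. Members with 1 probe set keep their value with the mean or dimmest probe set by construction. The count of 0 members at least 2-fold lower held at each setting. That of 1 member at least 2-fold higher, Psmf1, became 0 at 4-fold, with the floor at the 75th percentile, with the mean of the probe sets and with the dimmest probe set. Quantile normalization brought the alpha median from 0.16 to 0.0011, and subtraction of the intensity bins to 0.022. The difference between immune and constitutive beta subunits turned from -0.07 to 0.19 under both of these. Without probe sets that can match several transcripts the immune beta median was -0.10 and the ATPase median 0.067; fewer genes were left, and the beta difference could not be computed, as was the case with the floor at the 75th percentile. That floor, which leaves fewer genes, gave 0.0695 for activators and inhibitor and -0.19 for assembly chaperones, whose median was 0.22 against the bins. The dimmest probe sets gave -0.0625 for activators and inhibitor. Psmf1 stood at 1.82 for a floor at the 25th percentile and at 0.35 with the mean of the probe sets, Psmc4 at 0.41 and Psmd13 at -0.40 with the dimmest probe set. Some of these settings leave fewer genes, and the cause of the changes was not tested. Genes near the floor, such as Psmf1 and Psmc3ip, are limited by signal over background. No paired analysis was possible because each graft type has 1 array.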
